A study of Homo sapiens with 2 samples.

Results

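The NF-kB genes described here are 38 genes of the NF-kB pathway and its targets: the subunits of the transcription factor, its inhibitors, the kinases and adaptors that lead to it, 2 receptors, and inflammatory genes that it is known to switch on. They were picked by gene symbol, by a rule that uses no measured value but was written with earlier results of these data known, and all 38 were found among the 16424 genes with deposited values. Of these 38, 37 averaged at least 1 CPM (CAGE tags scaled to the size of each library) over both libraries, and LTBR was listed at 0 in both libraries. Cap analysis of gene expression (CAGE) reads a short tag at the capped 5′ end of each RNA, and here it was applied to PLC/PRF/5, a human hepatoma cell line. M2BPGi is a glycan isomer of Mac-2-binding protein that the lectin of Wisteria floribunda binds, and the libraries were made to look for signals that it regulates in these cells. The non-treated group (0 µg/ml) is 1 library from cells whose medium was changed without M2BPGi, and the M2BPGi-treated group is 1 library from cells kept for 6 h with 3 µg/ml M2BPGi. With 1 library per condition, no difference described here has a replicate check.

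NF-kB is a family of dimeric transcription factors held in the cytoplasm by IkB proteins. Receptors for tumour necrosis factor, interleukins and microbial products recruit adaptors and kinases that end in the IkB kinase complex, which marks IkB for destruction and lets the dimers enter the nucleus. Many of the genes that are then switched on encode inhibitors of the pathway itself, so that a signal is often short, and in liver cells the same dimers control chemokines, adhesion molecules and survival factors.

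The dimers bind a DNA element called the kB site, so the promoters of the NF-kB genes were searched for the 10-letter kB consensus on both strands. The sequences are RefSeq promoter windows in the build GRCh38.p14, from 250 bases before to 50 after each annotated start. Overlapping matches were counted once. Of the 38 genes, 32 had at least 1 window and 6 (NFKBIE, RELB, IKBKB, RIPK2, CXCL16 and CCL2) had none. A match was found in 20 of the 55 windows of the NF-kB genes (36.4%) and in 11.3% of all 35116 windows. A match describes letters and is neither a site nor a cause, and no match says only that these letters are not in this window. The form GGGAATTTCC was shared by the windows of 7 genes on one strand or the other. They are 3 IkB genes (NFKBIA, NFKBIB and NFKBIZ), 3 chemokine genes (CXCL1, CXCL2 and CXCL5) and the subunit gene NFKB1. Of these genes, 5 are shown first with 10 bases on either side, 5′ to 3′ on the strand of the gene, with the match in capitals.
NFKBIZ (chr3:101827757-101827786, plus strand): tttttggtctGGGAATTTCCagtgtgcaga
NFKBIB (chr19:38899931-38899960, plus strand): gggcgtggtgGGGAATTTCCcgcagggcgg
NFKB1 (chr4:102501300-102501329, plus strand): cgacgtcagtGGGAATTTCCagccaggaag
CXCL2 (chr4:74099254-74099283, minus strand): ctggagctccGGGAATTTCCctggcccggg
CXCL5 (chr4:73998749-73998778, minus strand): catgagttcaGGGAATTTCCccagcatccc
Next come genes with other forms of the element, shown in the same way, with log2 ratios from -0.44 (TNFAIP3) to 0.49 (IL32); where the match lies on the opposite strand (TNFAIP3 and CCL20), the capitals are its complement.
NFKB2 (chr10:102395674-102395703, plus strand): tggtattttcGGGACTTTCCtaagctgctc
REL (chr2:60881517-60881546, plus strand): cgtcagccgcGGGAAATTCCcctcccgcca
TNFAIP3 (chr6:137867182-137867211, plus strand): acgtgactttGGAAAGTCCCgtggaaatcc
TNFAIP3 (chr6:137867194-137867223, plus strand): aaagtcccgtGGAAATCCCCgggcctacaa
TNIP1 (chr5:151081057-151081086, minus strand): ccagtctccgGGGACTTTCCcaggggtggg
IL32 (chr16:3065294-3065323, plus strand): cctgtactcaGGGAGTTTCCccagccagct
CCL20 (chr2:227813753-227813782, plus strand): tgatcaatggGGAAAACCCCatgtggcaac
For NFKBIA, CXCL1 and TRAF3, the 150 bases just before the start are shown, since no exon of GENCODE v29 overlaps them on that strand; the match of NFKBIA is again on the opposite strand.
NFKBIA (chr14:35404750-35404899, minus strand): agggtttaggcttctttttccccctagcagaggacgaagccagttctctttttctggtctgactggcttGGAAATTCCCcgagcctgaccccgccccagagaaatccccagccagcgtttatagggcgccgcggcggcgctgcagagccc
CXCL1 (chr4:73869243-73869392, plus strand): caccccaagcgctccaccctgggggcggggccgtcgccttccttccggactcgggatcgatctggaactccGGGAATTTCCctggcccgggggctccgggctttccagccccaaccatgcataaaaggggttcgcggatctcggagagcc
TRAF3 (chr14:102777299-102777448, plus strand): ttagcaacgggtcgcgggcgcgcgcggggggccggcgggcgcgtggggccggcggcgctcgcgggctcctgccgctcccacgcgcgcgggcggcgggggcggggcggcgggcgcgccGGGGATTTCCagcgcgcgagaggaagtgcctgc
The 30 bases around the match were the same in CXCL1 and CXCL2 at 29 positions. The match began 79 bases before the start in CXCL1, 78 in CXCL2, 91 in CXCL5, 81 in NFKBIA, 49 in NFKB1, 28 in NFKBIB and 223 in NFKBIZ. TNFAIP3 had 2 matches, at 67 and 55 bases before its start, and that of TRAF3 began 33 bases before its start. Among the stretches shown with 10 bases on either side, those of NFKBIZ and CCL20 overlap no exon of that annotation, while the others overlap an annotated exon of their own gene.

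**Figure D1:**
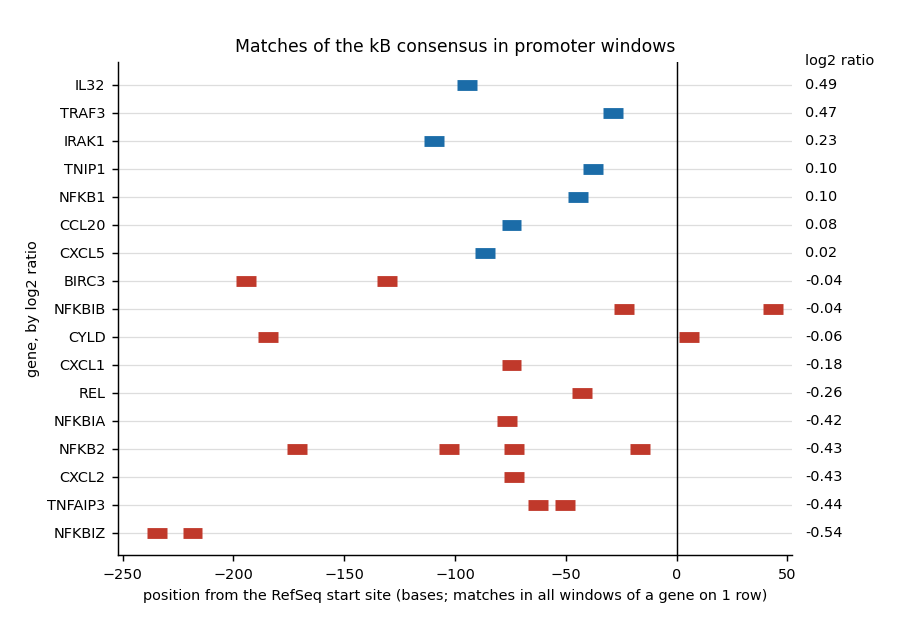
Matches of the 10-letter kB consensus in the RefSeq promoter windows of 17 NF-kB genes, with the position from the start site in bases on the x axis and the genes ordered by log2 ratio on the y axis (blue: log2 ratio above 0; red: below 0). The genes run from NFKBIZ at -0.54 to IL32 at 0.49, and genes with a match at nearly the same place can differ, such as CCL20 at 0.08 and CXCL2 at -0.43, with matches from 79 and 78 bases before the start.

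The values are CAGE CPM as deposited. A CAGE tag marks 1 capped end whatever the length of the transcript, so that CPM can be set side by side between genes. Log2 ratios set the M2BPGi-treated CPM over the non-treated CPM after a pseudocount of 1 CPM was added to each, which understates the change of low genes. Intervals are 95% Clopper-Pearson intervals of the log2 ratio of the tags, without the pseudocount, from totals of 24040209 tags in the non-treated and 24862941 tags in the M2BPGi-treated library, and counting error is all that they cover. With 0 tags, a level of up to 0.125 CPM in the non-treated and of 0.121 CPM in the treated library would still be possible. These limits hold only where a gene's tags would have been assigned to it, and how tags were assigned is not stated. Since these are bulk libraries, fewer cells of a type and less RNA per cell cannot be told apart.

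As a group, the NF-kB genes moved little and in both directions. None was at least 1.5-fold higher with M2BPGi (0 of 37), where 1.60% of all 13724 genes averaging at least 1 CPM were. TRAF1 was the 1 gene of 37 at least 1.5-fold lower, where 4.04% of all genes were. A log2 ratio below 0 was found for 22 of the 37 NF-kB genes (59.5%) and for 57.0% of all genes. The median log2 ratio was -0.04, with quartiles of -0.28 and 0.08, and that of all genes was -0.05. Counted by the interval, 15 of the 37 (40.5%) lay wholly below 0, against 31.5% of all genes, 6 (16.2%) lay wholly above 0, against 22.8%, and 16 spanned 0. The median and the share below 0 were near those of all genes, while more of the NF-kB genes than of all genes had an interval below 0, a difference that was not tested. These shares depend on level, since the intervals of low genes are wide, and 32 of the 37 averaged at least 10 CPM. Of all genes at that level, 34.8% had an interval below 0 and 28.9% above. The 15 NF-kB genes with an interval below 0 include TRAF1, TNFAIP3 and TRAF2, which averaged below 10 CPM. The share of the 37 is thus not one at that level, and part of its distance from all genes comes with these low genes. With the treated library multiplied by 1.04, which sets the median of all genes to 0, 18 of the 37 were below 0, and RELB, NFKBIB, IKBKG and BIRC3 changed sign. The intervals wholly below 0 were then 14, without RIPK1, and those wholly above 0 were 9, with RELA, TNIP1 and IRAK2 added. These were 37.8% and 24.3% of the 37, where 25.6% and 28.2% of all genes lay below and above 0 on that scale. Among all genes past 1.5-fold, 28.3% were higher as deposited and 41.1% after rescaling.

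**Figure D2:**
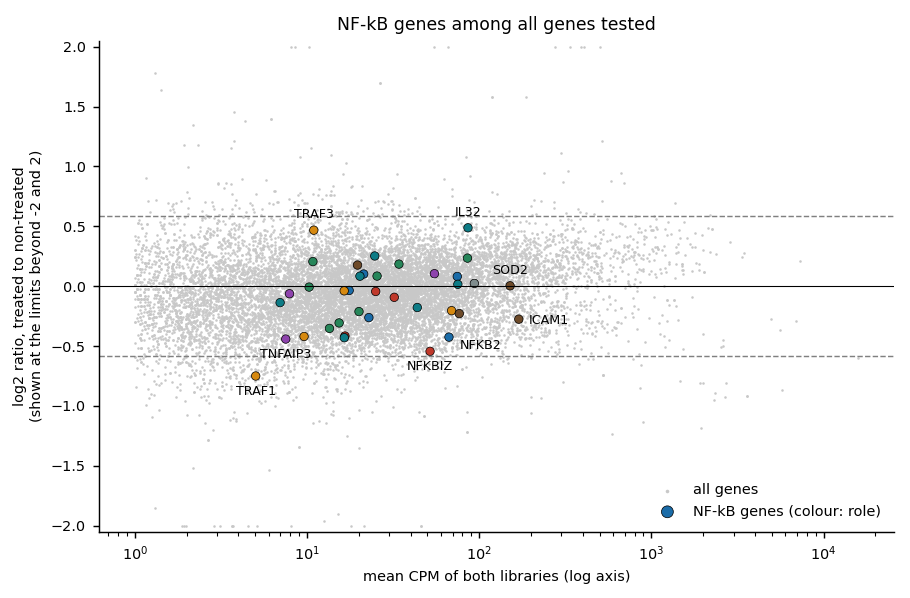
Mean CPM of both libraries (x axis, log scale) against the log2 ratio with M2BPGi to without (y axis) for 13724 genes in grey and 37 NF-kB genes in colour by role, with dashed lines at 1.5-fold. Only TRAF1 among the NF-kB genes lies past a dashed line, and the others lie inside the grey cloud.

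Levels among the subunits differed more than the libraries did. RELA, which encodes the p65 subunit with its activation domain, had 72.5 CPM without and 76.7 CPM with M2BPGi. NFKB2, whose product p100 is both a precursor of the p52 subunit and an inhibitor, had 76.7 and 56.8 CPM. NFKB1, the gene of p105 and its product p50, had 20.6 and 22.1 CPM. Thus the p100 gene was among the 2 most abundant subunit genes in non-treated cells and the one with the largest difference between the libraries, with a log2 ratio of -0.43 (interval -0.53 to -0.33). REL encodes c-Rel, a subunit best known from lymphocytes, and had 25.04 and 20.7 CPM. RELB, the partner of p52 in the alternative pathway, had 17.8 and 17.3 CPM. The intervals of NFKB2 and REL lay below 0 and those of NFKB1, RELA and RELB spanned it; among all genes, 31.5% lay below 0 and 22.8% above.

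All 4 IkB genes picked among the NF-kB genes had a log2 ratio below 0, where 57.0% of all genes did. After rescaling, on a scale that sets the median of all genes to 0, 3 of 4 did. The intervals of NFKBIE and NFKBIB spanned 0. NFKBIA encodes IkB-alpha, the inhibitor that NF-kB itself switches back on, and had 19.1 CPM without and 14.1 CPM with M2BPGi. NFKBIZ encodes IkB-zeta, a nuclear protein that adjusts the response of secondary target genes, and had 61.7 and 41.99 CPM. Both were lower by more than counting error, and NFKBIZ had the lowest log2 ratio of all NF-kB genes averaging at least 10 CPM, -0.54 (interval -0.67 to -0.44). NFKBIE, the gene of IkB-epsilon, had 33.2 and 31.1 CPM. NFKBIB, the gene of IkB-beta, had 25.5 and 24.7 CPM. The sum over the 4 genes was 139 CPM without and 112 CPM with M2BPGi. Genes of nuclear IkB proteins outside these 4 lay on both sides of 0. BCL3 was higher by more than counting error, with 28.79 and 34.75 CPM and a log2 ratio of 0.26 (interval 0.13 to 0.42). NFKBID, described below, was lower.

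Of the regulators that act on ubiquitin chains, 1 of 3 differed between the libraries by more than counting error as deposited. Among all genes, 31.5% had an interval below 0 and 22.8% above. TNFAIP3 encodes A20, which removes and replaces ubiquitin chains on signalling proteins, and had 8.82 and 6.23 CPM in non-treated and M2BPGi-treated cells. TNIP1 encodes a partner of A20 that binds ubiquitin and had 52.95 and 56.99 CPM. CYLD, a deubiquitinase and tumour suppressor, had 8.11 and 7.72 CPM. TNFAIP3 was lower by more than counting error, with an interval of -0.81 to -0.19, while the intervals of TNIP1 and CYLD spanned 0. After rescaling, the interval of TNIP1 lay above 0.

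**Figure D3:**
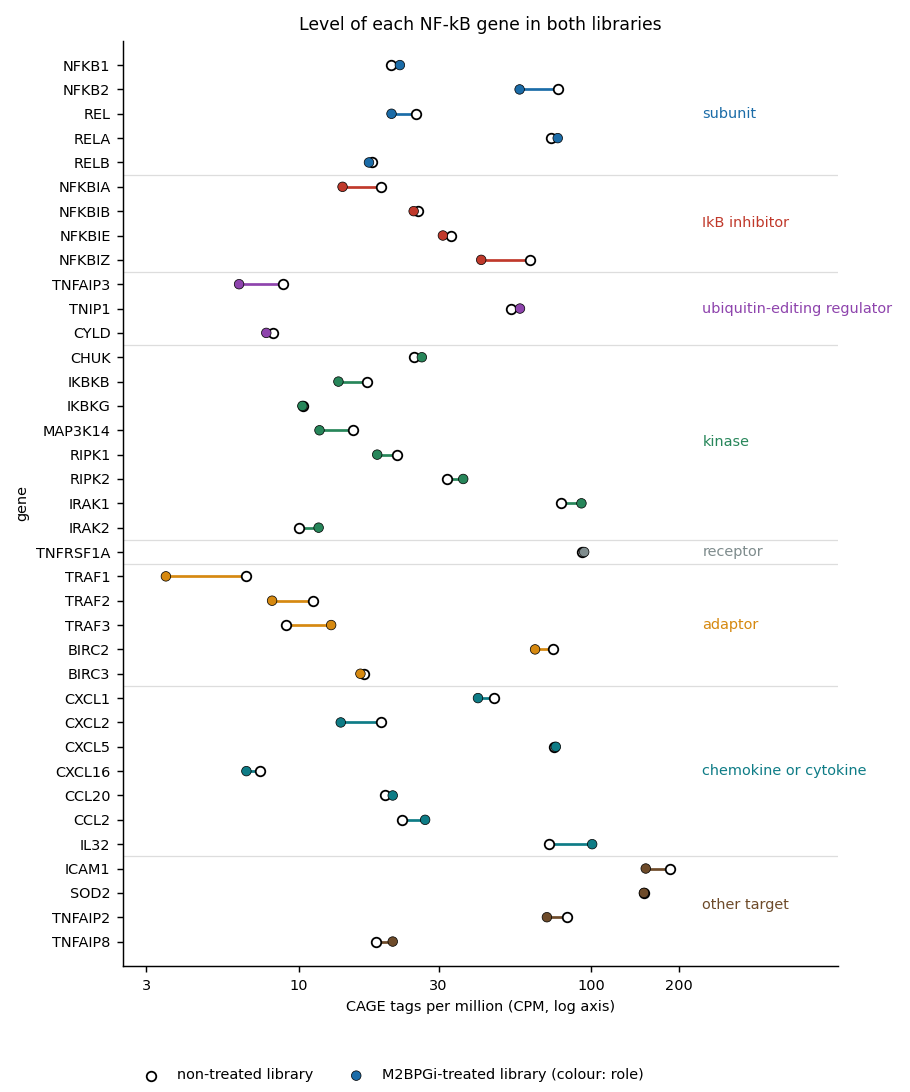
CPM of 37 NF-kB genes (rows, grouped by role) on a log axis, with an open point for the non-treated and a filled point for the M2BPGi-treated library. The distance between genes is much larger than that between the libraries, with TRAF1 lowest at 6.57 and 3.50 CPM and ICAM1 highest at 186 and 154 CPM.

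The components of the IkB kinase complex came next. CHUK encodes the kinase subunit IKK-alpha and had 24.8 CPM without and 26.3 CPM with M2BPGi. IKBKB encodes IKK-beta, the main kinase of IkB-alpha, and had 17.1 and 13.6 CPM. IKBKG encodes NEMO, the regulatory subunit without kinase activity, and had 10.3 and 10.26 CPM. The interval of IKBKB, from -0.54 to -0.12, excluded 0 and those of CHUK and IKBKG did not, but that of IKBKG overlapped it, and the difference between these genes was not tested. In GENCODE v29, 5 of the NF-kB genes overlap, on the same strand, a gene that also had values, and how tags were divided between such genes is not stated. CHUK overlaps ERLIN1, with 54.99 and 46.7 CPM, and IL32 a U1 RNA pseudogene, with 3.29 and 4.75 CPM. The deposited values of IRAK1 and of TRAF2 were the same as those of MIR718 and MIR4479 in both libraries. MIR3181, which overlaps CYLD, had 8.07 and 7.68 CPM, nearly the 8.11 and 7.72 CPM of CYLD. The tags of the 2 pairs with the same values cannot be told apart, and those of CYLD and MIR3181 may be largely the same.

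The kinases upstream of this complex lay on both sides of 0. MAP3K14 encodes NIK, the kinase of the alternative pathway, and had 15.3 and 11.7 CPM. RIPK1, which relays signals from the receptor of tumour necrosis factor, had 21.6 and 18.5 CPM. Both were lower in the M2BPGi-treated library by more than counting error. RIPK2, the kinase downstream of the NOD receptors, had 31.95 and 36.4 CPM. IRAK1, a kinase of interleukin-1 and Toll-like receptor signalling, had 78.5 and 92.5 CPM. Its relative IRAK2 had 9.98 and 11.7 CPM. RIPK2 and IRAK1 were higher by more than counting error and IRAK2 was not. After rescaling, the interval of RIPK1 no longer lay below 0 and that of IRAK2 lay above 0. Over all 8 genes of this role, 4 were below 0 and 4 above, where 57.0% of all genes were below, with a median log2 ratio of 0.04, and 3 were below after rescaling, when IKBKG changed sign.

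Of the receptors, TNFRSF1A encodes the main receptor of tumour necrosis factor and had 93.0 CPM without and 94.5 CPM with M2BPGi, a difference within counting error. LTBR, the receptor of lymphotoxin beta, was listed at 0 in both libraries. Its transcripts match parts of 24 other genes, and whether the 0 means that no tags were there or that they were not assigned to it cannot be told apart, so neither a ratio nor a limit is given.

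The adaptors held the lowest and the second highest log2 ratio of the NF-kB genes. TRAF1 (ENSG00000056558) encodes an adaptor that is itself a known target of NF-kB, and had 6.57 CPM (158 tags) without and 3.50 CPM (87 tags) with M2BPGi. Its log2 ratio was -0.75 (interval -1.30 to -0.52), 1.68-fold lower, and it was not past 1.5-fold with a pseudocount of 5 CPM, where its log2 ratio was -0.44. TRAF3 (ENSG00000131323) encodes the adaptor that holds NIK at a low level in resting cells, and had 9.03 and 12.9 CPM. In contrast to TRAF1 it was higher with M2BPGi, with a log2 ratio of 0.47 (interval 0.26 to 0.77). TRAF2, the adaptor that brings the ubiquitin ligases of the BIRC genes to the receptor, had 11.2 and 8.08 CPM. BIRC2 encodes cIAP1, one of these ligases, and had 74.1 and 64.2 CPM. BIRC3 encodes cIAP2 and had 16.7 and 16.2 CPM. TRAF2 and BIRC2 were lower by more than counting error and BIRC3 was not, where 31.5% of all genes had an interval below 0 and 22.8% above. The protein products of TRAF2, TRAF3, BIRC2 and BIRC3 form the complex that degrades NIK, and their transcripts, with that of NIK, did not move in 1 direction.

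**Figure D4:**
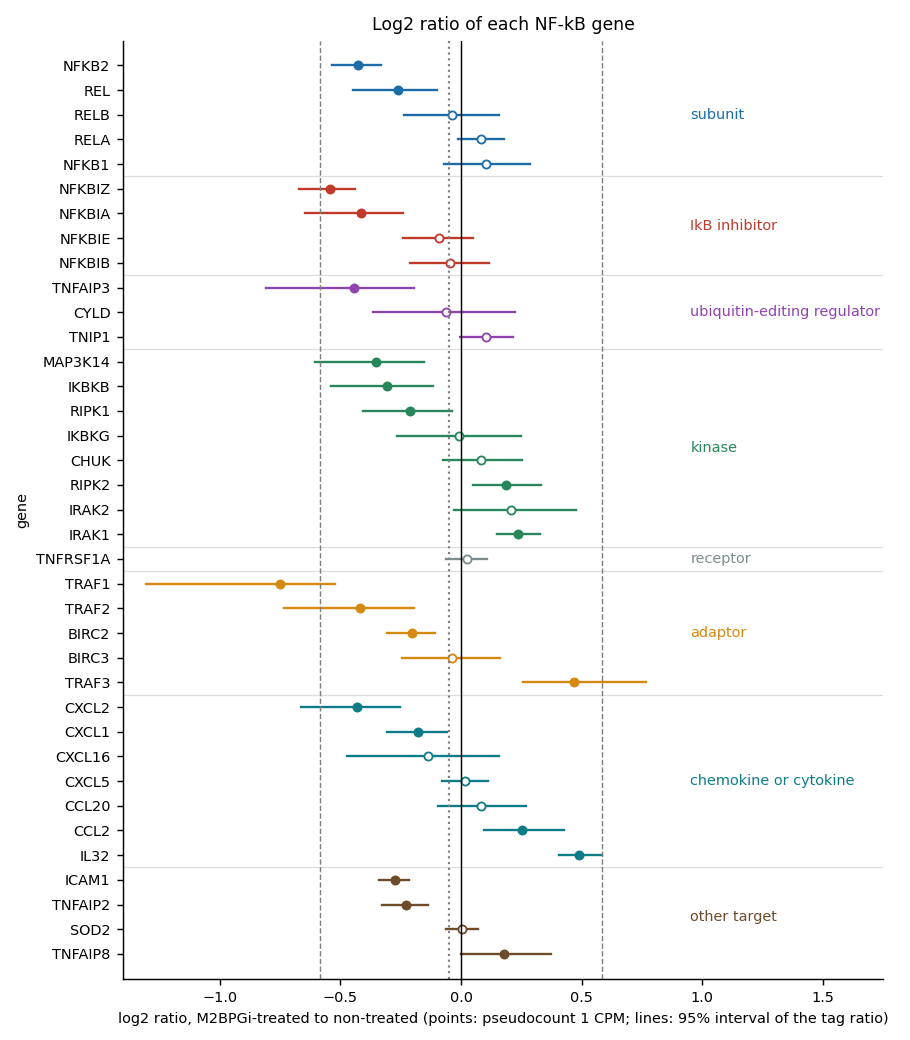
Log2 ratio of CPM with M2BPGi to CPM without (x axis) for 37 NF-kB genes by role (y axis), as points with the 95% interval of the tag ratio as lines, open where it spans 0. Dashed lines mark 1.5-fold and the dotted line the median of all genes, -0.05, and genes of most roles lie on both sides of it.

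The role of chemokines and cytokines holds 7 genes. CXCL1 and CXCL2 attract neutrophils through the receptor CXCR2. CXCL1 had 46.5 CPM without and 40.9 CPM with M2BPGi. CXCL2 had 19.1 and 13.9 CPM, a log2 ratio of -0.43 (interval -0.66 to -0.25). These genes matched each other with 95.2% identity over 207 nt near the 5′ end, so the division of tags between them is uncertain, but both were lower by more than counting error. CXCL5, another ligand of CXCR2, had 74.8 and 75.6 CPM. CXCL16, a chemokine that is also a membrane protein, had 7.36 and 6.60 CPM. CCL20, the ligand of CCR6, had 19.7 and 20.9 CPM. For these 3 genes the difference was within counting error. CCL2, which attracts monocytes, had 22.5 and 26.99 CPM, a log2 ratio of 0.25 (interval 0.10 to 0.43). IL32 (ENSG00000008517), the gene of a cytokine that itself induces inflammatory mediators, had 71.5 and 101 CPM, the highest log2 ratio of all NF-kB genes, 0.49 (interval 0.40 to 0.58). Of the 7 genes, 2 (28.6%) were lower and 2 higher by more than counting error, near the 31.5% and 22.8% of all genes.

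The role of other targets holds 4 genes, with the most abundant NF-kB gene, ICAM1, among them. ICAM1, the adhesion molecule to which leukocytes bind, had 186 CPM without and 154 CPM with M2BPGi. SOD2 encodes the mitochondrial superoxide dismutase and had 151 CPM in both libraries. ICAM1 was lower, with an interval of -0.34 to -0.21, and the interval of SOD2 was -0.06 to 0.07. A difference in SOD2 was not detectable at this depth. A second gene entry named SOD2 in GENCODE v29 matched it over 444 nt, which adds uncertainty to its tags. TNFAIP2, a gene induced by tumour necrosis factor, had 82.8 and 70.5 CPM. TNFAIP8, a regulator of cell death, had 18.4 and 20.9 CPM. TNFAIP2 was lower by more than counting error, and TNFAIP8 was higher, with an interval whose lower end was close to 0.

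Genes with and without a match of the kB consensus were compared next. Of the 31 NF-kB genes with a window and an average of at least 1 CPM, 17 had a match and 14 had none. Their median log2 ratio was -0.04 with a match, with 10 of 17 below 0, and -0.11 without, with 8 of 14 below 0. Over the 8859 genes with a window, 17.1% had a match, and the medians were -0.06 with and -0.04 without, with 58.7% and 56.2% below 0. The difference was not tested. The 7 genes that shared the form shown first held both NFKBIZ, the lowest of them, and NFKB1, at 0.10. GGGGATTTCC was shared by TNFAIP3, BIRC3 and TRAF3, of which the first was lower and the last higher. ICAM1, SOD2, TRAF1 and TNFAIP2 had no match in their windows.

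Further genes of the pathway were taken from a list of 79 that are not among the 38, with receptors, adaptors, kinases and ubiquitin enzymes. Values were found for 63 of them, 16 were not analysed here, and 61 averaged at least 1 CPM. Of these, 24 (39.3%) were below 0, against 57.0% of all genes, and the median log2 ratio was 0.04. At least 1.5-fold higher were 2 (TAB1 and COMMD1) and lower 1 (NFKBID), where 1.60% and 4.04% of all genes were. With a pseudocount of 5 CPM none of these was past 1.5-fold, with log2 ratios of 0.49 for TAB1, 0.54 for COMMD1 and -0.37 for NFKBID. TAB1, a partner of the kinase TAK1, had 11.4 CPM without and 18.1 CPM with M2BPGi, a log2 ratio of 0.62 (interval 0.44 to 0.88). COMMD1, which promotes the breakdown of RELA, had 28.9 and 44.1 CPM, a log2 ratio of 0.59 (interval 0.47 to 0.75), but its 5′ sequences match RPSA and RPSA pseudogenes, so its tags are uncertain. SHARPIN, a subunit of the ligase that makes linear ubiquitin chains, had 24.8 and 33.1 CPM. At the other end were CD40, a receptor that feeds the alternative pathway, with 39.8 and 30.5 CPM, ERC1, a component linked to the IkB kinase complex, with 22.9 and 18.3 CPM, and IL18R1, a receptor chain of interleukin-18, with 46.5 and 38.4 CPM. NFKBID, the gene of a nuclear IkB protein, was low, with 2.58 and 0.88 CPM and a log2 ratio of -0.93 (interval -2.32 to -0.82), and it matched another gene entry over 111 nt.

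A list of 66 other target genes gave values for 41, of which 33 averaged at least 1 CPM. Not analysed here were 25, among them TNF, IL1B and CXCL8. IL6, PTGS2 and BCL2A1 were listed at 0 in both libraries. Below 0 were 20 of 33 (60.6%), close to the 57.0% of all genes, with a median log2 ratio of -0.07. Past 1.5-fold, the shares of all genes were 1.60% higher and 4.04% lower. At least 1.5-fold lower were 2, IRF1 and EFNA1. IRF1, a transcription factor of the interferon response, had 17.3 CPM without and 8.97 CPM with M2BPGi, a log2 ratio of -0.87 (interval -1.19 to -0.71). EFNA1, a ligand of Eph receptors, had 14.1 and 8.45 CPM, a log2 ratio of -0.67 (interval -0.99 to -0.48). GADD45B, a stress gene that restrains JNK signalling, had 32.8 and 23.8 CPM. At least 1.5-fold higher were also 2, NINJ1 and FTH1, both just past it with a log2 ratio of 0.59. With a pseudocount of 5 CPM, NINJ1 at 0.51 and EFNA1 at -0.50 were no longer past 1.5-fold, while IRF1 at -0.67 and FTH1 at 0.59 were. NINJ1, a membrane protein involved in the rupture of dying cells, had 20.7 and 31.6 CPM (interval 0.45 to 0.78). FTH1, the heavy chain of ferritin, had 829 and 1246 CPM (interval 0.56 to 0.61), and its tags are uncertain because 14 genes, named as FTH1 pseudogenes, match it. CEBPB, a transcription factor of the acute phase response, had 113 and 155 CPM. The list thus also held both higher and lower genes, with IRF1 below and NINJ1 and FTH1 above the range of the 38 NF-kB genes.

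Cell type markers were measured in the same libraries. Of the 14 hepatocyte markers, 13 had values and all 13 were detected, which include AFP with 695 and 566 CPM and HNF4A with 39.1 and 43.8 CPM, while ALB was low at 8.82 and 7.04 CPM. Of these 13, 9 (69.2%) were lower in the M2BPGi-treated library by more than counting error, where 31.5% of all genes were, and 2 (15.4%), APOA2 and HNF4A, were higher, where 22.8% of all genes were. Their summed level was 4080.0 CPM without and 2997 CPM with M2BPGi, and the most abundant, FGG, had 1402 and 987 CPM. Their median log2 ratio was -0.40. Whether this shift of hepatocyte genes bears on the NF-kB genes was not tested. Defining markers of leukocytes (PTPRC) and macrophages (CSF1R) were listed at 0 in both libraries, and 0 of the 6 endothelial markers had values. Of the 8 markers of stellate cells or fibroblasts, 3 had values, which summed to 5.45 CPM without and 4.42 CPM with M2BPGi, most of it from COL3A1 with 4.53 and 3.42 CPM. CD68 and LYZ, which macrophages share with other cells, had 21.2 and 32.1 CPM in non-treated and 20.5 and 29.2 CPM in M2BPGi-treated cells.

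Over the 36 NF-kB genes with a transcript length and an average of at least 1 CPM, Spearman's rho between the log2 ratio and the length of the longest transcript was -0.11, and over 13271 genes it was -0.16. These are descriptions across genes of the same 2 libraries.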

How the data were processed

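CAGE libraries were made from PLC/PRF/5 cells, 1 non-treated and 1 treated with M2BPGi. Per the methods, ribosomal tags and those holding undetermined bases were removed before mapping with BWA, and tag starts were then clustered; a service company did this for the authors. The submitters' processing notes name BWA, HISAT2 and the build hg19, while the methods name a mouse build; the gene identifiers are human. The authors deposited 1 CPM value per gene and library, rounded to 2 decimals. The sources do not say how a tag was given to a gene, nor what was done with one that maps to several loci, which matters for genes with near-identical copies. The tag numbers were read back as the single library total for which every CPM is a whole number of tags within the rounding of 0.005 CPM, which 100% of the values were; the tags on the listed genes were 22630317 and 23471991.

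Log2 ratios used a pseudocount of 1 CPM over genes averaging at least 1 CPM. Differences were described by counts past 1.5-fold, by medians and by 95% Clopper-Pearson intervals. No test of the conditions was made. Every NF-kB gene is given with both CPM. A log2 ratio with its interval is given by rule for genes past 1.5-fold and the 3 highest and 3 lowest that averaged at least 10 CPM, and likewise the 3 highest and 3 lowest of the other lists are named; intervals of other genes were added after their values were seen. The members and lists were chosen with earlier results of these data known. Near-identical copies were searched with BLAST+ 2.17.0 from the first 500 nt of GENCODE v29 transcripts, for matches of at least 100 nt and 95% identity, for 37 of the 38 genes (the identifier of IKBKG is not in that annotation). Of these, 33 had none; LTBR matched parts of 24 other genes. The interval and tag steps were tested on simulated data. Alternatives were other pseudocounts, filters, a rescaling, summed rows and a fold of 2. Python 3.11.15 with scipy 1.17.1 was used.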

Additional observations from a re-analysis of the deposited data

How the results depend on the processing

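No paired analysis was possible because there is 1 library per group, and for the same reason no library can be left out. The TMM factors of edgeR were not run, because among values of few tags 87.6% in the non-treated library and 94.1% in the treated one lay within 0.1 tags of a whole number (the rounding alone reaches 0.12 tags), so the tag numbers were not given to a count tool. The intervals rest on the same tag numbers.

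The number of NF-kB genes at least 1.5-fold lower, 1, was 0 with a pseudocount of 5 CPM, 0 among genes averaging at least 10 CPM and 0 at a fold of 2. TRAF1, with a mean below 10 CPM, leaves the list under that filter, and a larger pseudocount shrinks the ratio of low genes. The other target genes below 0, 20 of 33, were 13 of 24 when genes had to average at least 10 CPM. Over all genes, those at least 1.5-fold higher and lower, 219 and 555, were 336 and 856 with a pseudocount of 0.1 CPM, 91 and 164 with 5 CPM, 33 and 59 at a fold of 2, and 135 and 223 among genes averaging at least 10 CPM. The other 56 of 68 alternative values stayed within 1.5 times the count or within the order-statistic interval of the median. The median of the NF-kB genes was 0.01 after rescaling, and -0.04 over the 33 genes without a near-identical copy. Of 118 alternative values of named genes, 4 moved outside the counting interval and 0 of those with an interval apart from 0 changed sign. The depth limits only the counting error, which is widest for low genes such as TRAF1, and no comparison of the conditions has replicates.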
